A study of Mus musculus with 2 samples.

Results

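Sox9, Sox5, Sox6 and Wwp2, 4 of the 43346 genes measured, were followed in total RNA of the mouse embryonic limb, with levels from the gene tables and forms from the transcript tables. The genes were chosen by name for their part in cartilage formation and matched by gene identifier, and all 4 were found. Their 21 transcripts were among 103639 in the tables. The samples were 2 libraries of 1 group, limb at embryonic day 11.5 from embryos of both sexes of the strain B6NCrl, with no treatment, genetic change or contrast named. RNA of 109 embryos was pooled for replicate 1 and of 88 for replicate 2, so each value averages over many animals and over all cell types of the limb. Since the RNA is of whole tissue, fewer cells of a type and less RNA per cell cannot be told apart.

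Sox9 is the transcription factor that mesenchymal cells need in order to condense and become chondrocytes, and it binds enhancers of cartilage matrix genes through its HMG domain. Sox5 and Sox6 form the SoxD branch of the same family. Their long forms pair through a coiled coil, have no activation domain of their own, and help Sox9 at those enhancers, while a short form of Sox5 that lacks the first part of the protein is known from testis. Wwp2 is a ubiquitin ligase of the NEDD4 family that binds Sox9 and is expressed with it in cartilage, and an intron of its gene holds the cartilage microRNA miR-140.

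The sequences shown first are coding exons that some of the measured forms lack as a whole. The forms differ elsewhere too. Among forms that lack the exon shown, coding length was 2145 nt in Sox5-202 and 2037 nt in Sox5-205, and 2355 nt in Sox6-202 and 2361 nt in Sox6-204. Each SoxD gene had 1 coding exon that some of its deposited forms held and others skipped, a cassette exon. In Sox5 it was coding exon 9 of the form Sox5-201, 147 bases or 49 codons, at chr6:143907387-143907533 on the minus strand of GRCm38. In Sox6 it was coding exon 8 of the form Sox6-201, 123 bases or 41 codons, at chr7:115579016-115579138 on the minus strand. Both lengths are multiples of 3, so inclusion or skipping keeps the reading frame. The exon is printed in capitals, with 20 bases of the neighbouring exon on either side in lower case.
Sox5 cassette exon: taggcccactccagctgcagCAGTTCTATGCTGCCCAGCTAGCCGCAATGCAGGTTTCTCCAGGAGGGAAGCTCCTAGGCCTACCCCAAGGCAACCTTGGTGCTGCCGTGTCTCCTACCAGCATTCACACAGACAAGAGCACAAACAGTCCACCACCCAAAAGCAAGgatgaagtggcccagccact
Sox6 cassette exon: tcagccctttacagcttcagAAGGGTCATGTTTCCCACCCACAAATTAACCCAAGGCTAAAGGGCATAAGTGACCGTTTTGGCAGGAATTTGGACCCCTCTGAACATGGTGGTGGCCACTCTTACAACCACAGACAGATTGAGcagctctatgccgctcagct

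These cassettes were not each other's counterpart. Of the 15 coding exons of Sox6-201, the one most like the Sox5 cassette was coding exon 9 (chr7:115550010-115550159), with 94 identical bases or 62.7% of the alignment, against 48.6% for the next exon. All 5 deposited Sox6 forms held that exon. The Sox6 cassette had no such match in Sox5-201, where the best exon reached 52.7% and the next 48.0%. Over the whole proteins, translated from the annotated coding sequences, Sox5-201 (763 residues) and Sox6-201 (827 residues) were identical at 64.3% of 740 aligned positions. Sox9 (507 residues) shared 32.2% of 283 aligned positions with Sox5 and 30.5% of 282 with Sox6. Of the 15 coding exons in each SoxD gene, 6 had the same length in the other.

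The remaining sequence of interest lies inside Wwp2. The miR-140 hairpin is in intron 16 of the 24-exon form Wwp2-201, at chr8:107551244-107551313 on the plus strand, and its 3p arm, credited to RefSeq on GRCm38.p6, is shown with the seed, bases 2 to 8, in capitals.
mmu-miR-140-3p: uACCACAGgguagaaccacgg
The Mir140 entry, 70 nt long, had 0 counts in both libraries. RNA under 200 nt was removed before sequencing and the deposited effective length of this entry was 0, so this 0 is no measure of the microRNA.

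Sox9 was the highest of the 4 genes in both pools, followed by Wwp2, Sox5 and Sox6. Levels are in TPM, a unit that divides the reads of a gene by its length and by the library's total, so that genes can be compared. Sox9 stood at 170.14 TPM in replicate 1 and 154.38 in replicate 2 (162 ± 11.1, SD, n = 2), from 19340 and 14576 expected counts. Its mean was above that of 95.9% of the 21474 protein-coding genes, whose median was 3.02 TPM. Wwp2 stood at 73.14 and 65.13 TPM (69.1 ± 5.66), from 8613 and 6370 counts, above 89.7% of protein-coding genes. In both genes replicate 1 was the higher library.

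Sox5 stood at 39.33 and 33.84 TPM (36.6 ± 3.88), from 2488 and 1763.75 counts, above 81.4% of protein-coding genes. Sox6 stood at 10.07 and 7.82 TPM (8.95 ± 1.59), from 1495 and 1054 counts, above 60.9%. Replicate 1 was again the higher for each. No 2 neighbours in the order overlapped between libraries. In replicates 1 and 2 the ratio of levels was 2.33 and 2.37 for Sox9 over Wwp2, 1.86 and 1.92 for Wwp2 over Sox5, and 3.91 and 4.33 for Sox5 over Sox6. Sox9 was 16.9 and 19.7 times Sox6. With 2 values a gene, no test of the order was made, because 2 against 2 samples cannot reach p = 0.05 in an exact permutation test.

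The deposited tables also give bounds on each TPM, without a stated level. For Sox5 they ran from 35.5 to 43.7 TPM in replicate 1 and from 29.5 to 38.3 in replicate 2. For Sox6 they ran from 9.23 to 10.6 and from 6.96 to 8.28. Those of Sox9, 164 to 169 and 148 to 153, lay below its TPM in both libraries, and so the bounds are not read here as intervals around the deposited value.

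In GRCm38 the genes differ widely in size. Sox9 (ENSMUSG00000000567) is compact, on the plus strand of chromosome 11 from 112782224 to 112787760, with 3 exons. Wwp2 (ENSMUSG00000031930) lies on the plus strand of chromosome 8 from 107436365 to 107558595. Sox5 (ENSMUSG00000041540) spans 954 kb on the minus strand of chromosome 6 from 143828425 to 144781977, and Sox6 (ENSMUSG00000051910) 568 kb on the minus strand of chromosome 7 from 115470872 to 116038796. These are whole genes, exons and introns together. Sox9 and Wwp2 each had 1 transcript in the tables, Sox5 had 14 and Sox6 had 5.

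**Figure D1:**
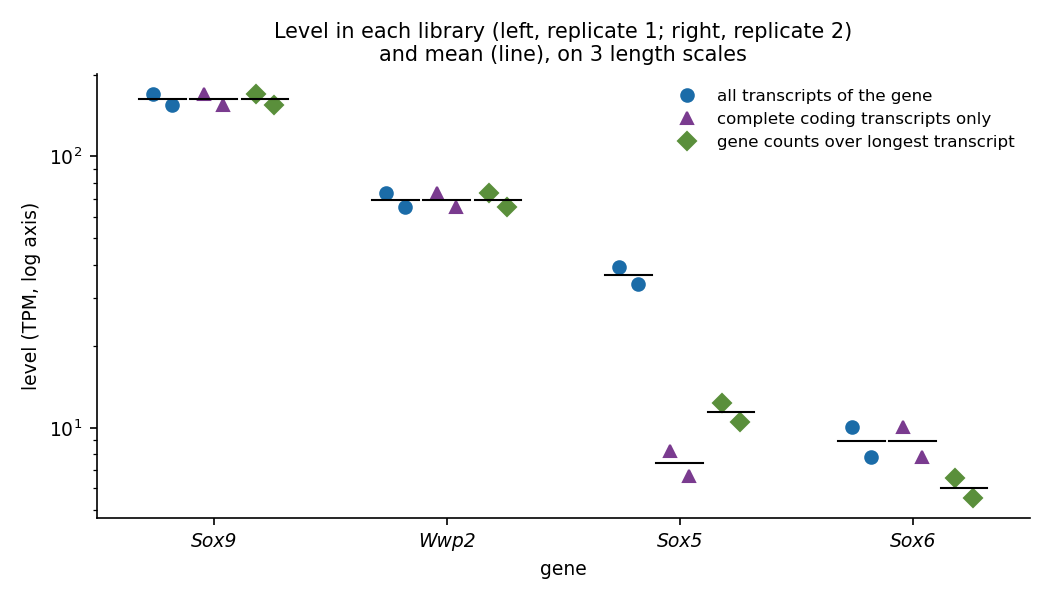
Level of each gene (log axis, TPM) in replicate 1 (left point of a pair) and replicate 2 (right point), with the mean as a line, over all transcripts, over complete coding transcripts only, and from the gene's counts over its longest transcript. Sox9 and Wwp2 keep their place on all 3 scales, while Sox5 falls from a mean of 36.6 TPM over all transcripts to 7.45 over complete coding transcripts, next to Sox6.

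The place of Sox5 in that order depended on which transcripts were counted. Most of its TPM lay on short annotated models without a complete coding sequence. The forms with a complete long coding sequence (Sox5-201, Sox5-202, Sox5-205 and Sox5-214) together held 20.9% and 19.8% of Sox5 TPM in replicates 1 and 2 (20.3% ± 0.813), but 65.3% and 62.3% of its counts (63.8% ± 2.18). They are 7069 to 7243 nt long in the tables, so a read on them adds less TPM than a read on a short model. The 2 incomplete coding models, Sox5-206 (listed at 0) and Sox5-211, held 27.9% and 22.1% of TPM from 7.07% and 5.64% of counts. Models annotated as non-coding, 7 in number, held 51.2% and 58.2% of TPM from 27.6% and 32.1% of counts.

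Over complete coding transcripts Sox5 stood at 8.22 TPM in replicate 1 and 6.68 in replicate 2 (7.45 ± 1.09). Sox6, all of whose deposited forms have a complete coding sequence, stood at 10.06 and 7.83 (8.95 ± 1.58). On this scale Sox5 was 0.817 and 0.853 of Sox6, and the values of these genes overlapped across libraries, with the Sox5 value of replicate 1 above the Sox6 value of replicate 2. When the counts of each gene were divided by its longest transcript instead, Sox5 was 12.4 and 10.6 TPM and Sox6 6.53 and 5.54, a ratio of 1.89 and 1.90. Sox9 and Wwp2 were above both SoxD genes on every one of these scales. The split of reads among overlapping transcripts is an estimate, and how much of the short models' TPM comes from reads of the long forms was not tested.

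Among the complete coding forms of Sox5, Sox5-205, which skips the cassette, was the highest, with 4.58 and 4.19 TPM from 899.95 and 683.08 counts. Sox5-201, the form with the 49-codon cassette, had 2.45 and 1.94 TPM from 492.1 and 324.81 counts. Sox5-202, which skips the cassette, had 1.19 and 0.55 TPM from 233.69 and 90.31 counts, and Sox5-214 was listed at 0 in both. The cassette was thus held by 29.8% and 29.0% of complete coding Sox5 TPM (29.4% ± 0.540), and by 30.3% and 29.6% of the counts. Since Sox5-201 is the only complete form with the exon, this share rests on 1 transcript model.

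The short coding form, Sox5-204, with a coding length of 1176 nt against 2289 nt in Sox5-201, had 0 expected counts in both libraries. Its upper deposited bound was 0.169 TPM in replicate 1 and 0.168 in replicate 2. It begins at an internal start on chromosome 6 at 143947106, inside the gene, and the starts of Sox5-203, Sox5-206 and Sox5-211 lie within a few bases of it. Together the transcripts of the internal start held 10.96 and 9.43 TPM, 27.9% of Sox5 TPM in each library, from 175.91 and 152.33 counts. All of that in replicate 1 and most of it in replicate 2 lay on Sox5-211, a 669-nt model whose coding sequence is cut short at its 3′ end, with 10.96 and 7.46 TPM. In replicate 2 Sox5-203, a 1244-nt non-coding model listed at 0 in replicate 1, held 1.97 TPM. The expected counts of models that begin at the internal start were therefore on partial models and none on the complete short form. Counts are given per model, so they do not place reads at the start itself.

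Upstream of it, Sox5 transcripts fell into 3 further groups of starts, where starts within 1000 bases of each other were grouped. The group at 144209452 to 144209568, where all complete long forms begin, held 39.8% and 34.2% of TPM and 73.1% and 70.3% of counts. The group at 144204057 to 144204427, made of Sox5-207 and Sox5-208, held 26.7% and 31.1% of TPM from 13.6% of counts in each. The outermost group at 144781919 to 144781977 held 5.68% and 6.81% of TPM, and the transcripts there are non-coding models. Of the short models, the 351-nt Sox5-208 held 15.4% and 20.5% of TPM from 43.05 and 40.96 counts, the 633-nt Sox5-213 held 15.7% and 10.0%, and the retained-intron model Sox5-207 held 11.3% and 10.6%.

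**Figure D2:**
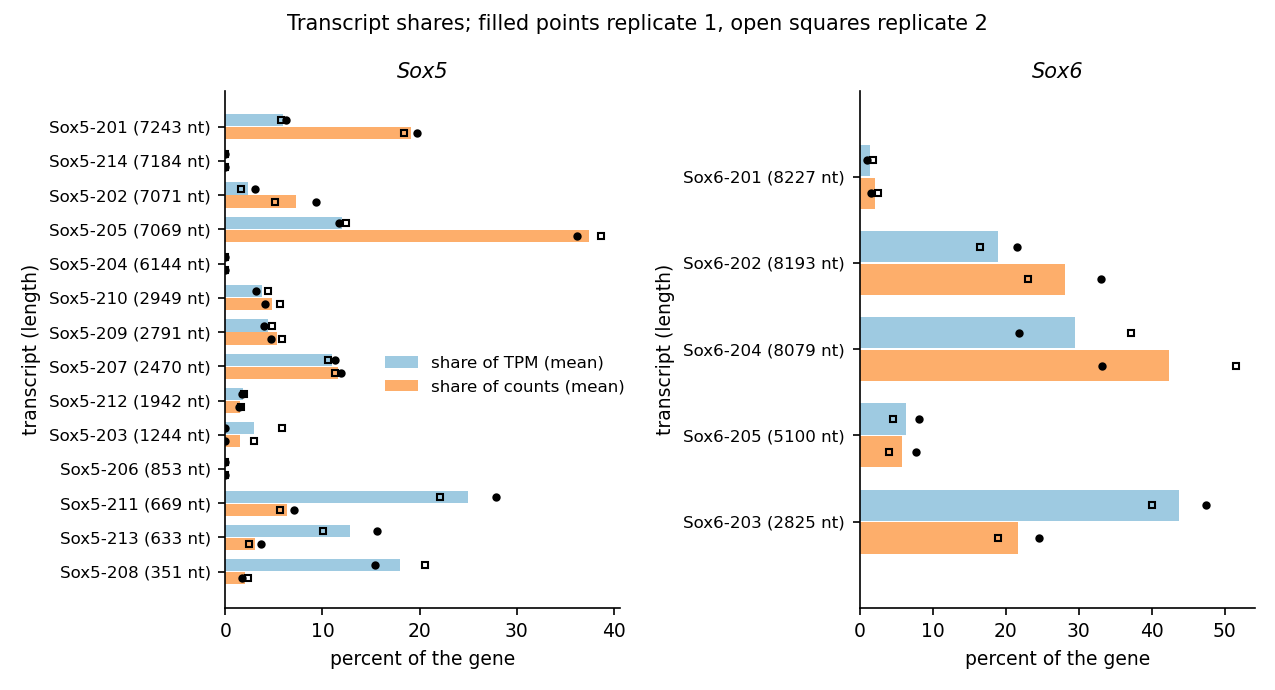
Share of each gene's TPM (blue bars) and of its expected counts (orange bars), in percent, for the transcripts of Sox5 and Sox6 in order of length, as means of 2 libraries with each library as a point. In Sox5 the short models at the bottom hold large shares of TPM and small shares of counts, as for Sox5-208 with 18.0% of TPM and 2.03% of counts, while Sox5-205 near the top shows the reverse with 12.0% and 37.5%.

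Sox6 was carried by 3 forms that begin at different places and share most coding exons. Sox6-203, which starts at 115846105, held 47.4% and 40.0% of Sox6 TPM (43.7% ± 5.23) with 4.78 and 3.13 TPM. Sox6-204, the outermost deposited start at 116038744, held 21.9% and 37.2% (29.5% ± 10.8) with 2.20 and 2.91 TPM. Sox6-202, which starts at 116031047, held 21.5% and 16.4% with 2.16 and 1.29 TPM. Sox6-204 was higher in replicate 2 while Sox6-203 and Sox6-202 were higher in replicate 1, so Sox6-203, the largest form by TPM, was well above Sox6-204 in replicate 1 and close to it in replicate 2. By counts the order was different, with Sox6-204 holding 33.1% and 51.5%, Sox6-202 33.0% and 23.1%, and Sox6-203, whose deposited model is 2825 nt against 8079 nt for Sox6-204, 24.5% and 18.9%. Sox6-205 held 8.18% and 4.56% of TPM, and Sox6-201 held 1.03% and 1.77%.

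The 41-codon cassette of Sox6 is present in Sox6-203 and Sox6-201 and absent from Sox6-202, Sox6-204 and Sox6-205. Forms with the exon made up 48.5% and 41.8% of Sox6 TPM (45.1% ± 4.77) and 26.1% and 21.4% of its counts (23.8% ± 3.31). Each of these models has a start of its own and either holds or skips the exon, and the innermost start, that of Sox6-205, goes with a form that skips it. Within a start, inclusion was therefore not measured. By counts, forms without the cassette were in the majority in both SoxD genes and in both libraries. In Sox6 this cannot be separated from model length, since Sox6-203 is 2825 nt long and the skipping forms Sox6-202 and Sox6-204 are 8193 and 8079 nt. By TPM, Sox6 forms with and without the exon stood at 4.88 and 5.18 in replicate 1, and at 3.27 and 4.56 in replicate 2.

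The starts of Sox6 also differ in sequence, and the 250 bases upstream of the main ones by TPM and by counts are shown from RefSeq promoters on GRCm38.p6, minus strand, with CG dinucleotides in capitals. The first ends at the start of Sox6-204 (chr7:116038745-116038994). The second (chr7:115846141-115846390) ends at the RefSeq start 115846140, beside the deposited start of Sox6-203.
Upstream of Sox6-204: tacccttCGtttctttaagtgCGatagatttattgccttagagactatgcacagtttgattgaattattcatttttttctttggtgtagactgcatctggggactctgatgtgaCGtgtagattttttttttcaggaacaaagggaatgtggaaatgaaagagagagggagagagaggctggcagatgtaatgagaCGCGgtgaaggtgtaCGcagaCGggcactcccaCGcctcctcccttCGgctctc
Upstream of Sox6-203: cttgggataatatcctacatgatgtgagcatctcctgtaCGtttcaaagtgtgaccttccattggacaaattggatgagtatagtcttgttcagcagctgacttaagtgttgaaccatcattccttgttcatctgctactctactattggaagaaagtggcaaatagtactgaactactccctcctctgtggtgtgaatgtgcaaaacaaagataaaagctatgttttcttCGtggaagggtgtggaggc
The stretch before Sox6-204 held 9 CG dinucleotides and that before Sox6-203 held 2. In windows from 250 bases before to 50 after the start, the median of 32851 RefSeq promoters was 7 CG. The members' windows used by a deposited transcript had 11 (Sox6-204), 13 (Sox6-202), 2 (Sox6-201), 2 (Sox6-203), 4 (Sox6-205), 3 (internal start of Sox5) and 28 (Wwp2). The Wwp2 promoter had more CG than 85.8% of promoters. The sequence AACAAT, a core that Sox factors bind, searched on both strands (ATTGTT), was found in 10.7% of these promoters. Among the members' windows used by a deposited transcript it was found only before Sox6-205, with 2 matches. RefSeq promoters were matched for 3 of the 4 genes and none for Sox9. For Sox5 the only one lay at the internal start, so the start of its complete long forms was not covered.

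Wwp2 levels refer to the gene's 24-exon form, because the tables hold only Wwp2-201 while the later annotation lists 11 transcripts. One of these, Wwp2-205, has a coding length of 1293 nt against 2610 nt and starts at 107545012, inside intron 10 of Wwp2-201. That start lies 6.23 kb upstream of the miR-140 hairpin, against 115 kb for the start of Wwp2-201. Wwp2-205 shares 13 exons with the long form, so reads on those exons are counted on Wwp2-201, and the short and long forms could not be separated here.

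Genes that overlap the members held few reads. On the strand opposite Sox5, Sox5os1, Sox5os2, Sox5os3, Sox5os4 and Sox5os5 had between 0 and 4 counts in either library, and the sense intronic Sox5it had 1 and 0. Sox6os, antisense to Sox6, had 9 and 3 counts (1.00 and 0.40 TPM). The pseudogene Rps26-ps1, which lies within a Wwp2 intron on the other strand, had 106.18 and 44.45 counts (12.12 and 6.11 TPM), against 8613 and 6370 for Wwp2, and its reads may be shared with its parent gene and other copies. The other overlapping entries of the later annotation, Gm44068, Gm45025 and Gm45900, were not matched. The sources used here do not say whether strand was used, and without strand the reads of overlapping genes cannot be told apart.

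All 4 genes were lower in replicate 2 by amounts common among genes of their level. On TMM-scaled counts, a scaling that aligns the bulk of genes, the log2 ratio of replicate 2 over replicate 1 was -0.09 for Sox9, -0.12 for Wwp2, -0.18 for Sox5 and -0.19 for Sox6, while the median over all genes was -0.01. Of 16787 genes tested, 518 (3.09%) passed an adjusted p of 0.05 and at the same time differed at least 2-fold, and 0 of the 4 members did. By p alone, which covers counting error and not biological spread, all 4 passed (binomial test, Benjamini-Hochberg adjusted p = 1.6e-07 for Sox9, 9.49e-06 for Wwp2, 0.000536 for Sox5 and 0.00682 for Sox6), as did 29.6% of all genes tested, 15.4% in the same direction. For a comparison by level, genes were ranked by mean CPM and cut into 20 bins. The 4 ratios were larger in size than those of 71.0% (Sox9), 79.8% (Wwp2), 85.7% (Sox5) and 81.1% (Sox6) of the 806 genes in the same bin. They were below the bin's 95th percentile of 0.18, 0.19, 0.26 and 0.31. The spread between libraries, estimated over genes by edgeR, was a biological coefficient of variation of 7.65%. That estimate comes from the same 2 libraries and takes in the difference between them. An exact test that uses it therefore cannot decide whether the members differ, and no conclusion is drawn from it. The binomial test compares these libraries, not conditions.

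Deposited TPM differed more between libraries than the scaled counts, and the spike-in RNAs, which share its total, took 11.8% of TPM in replicate 1 and 17.2% in replicate 2. From replicate 1 to 2 the deposited values changed by -9.26% (Sox9), -10.95% (Wwp2), -14.0% (Sox5) and -22.3% (Sox6). Rescaled over genes alone, the changes were -3.39%, -5.19%, -8.39% and -17.3%. The Sox6 change stayed the largest of the 4 on both scales. Its estimated length, by which TPM divides, was 5369 nt in replicate 1 and 5861 nt in replicate 2. On TMM-scaled counts, which are not divided by length, Sox6 and Sox5 were close, with log2 ratios of -0.19 and -0.18. The part of length in the Sox6 change was not tested.

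**Figure D3:**
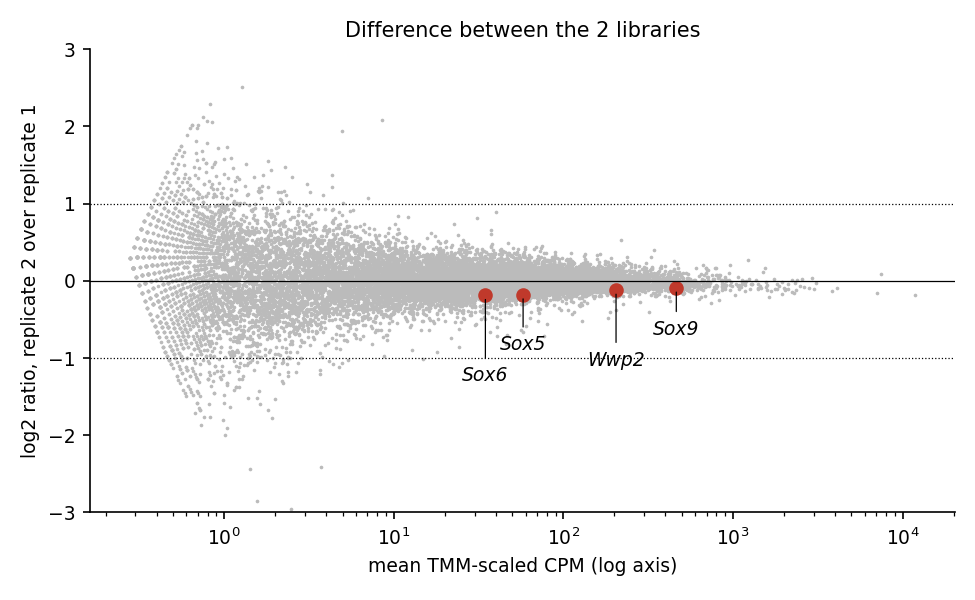
Log2 ratio of replicate 2 over replicate 1 against the mean TMM-scaled CPM (log axis) for 16118 genes whose count was 10 or more in each library, with the 4 genes in red and dotted lines at a log2 ratio of 1 and -1. The members lie between -0.19 and -0.09, inside the cloud of genes of like level.

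Within the Sox family, 12 of 20 genes were detected, which here means 1 TPM or more in each library. The median over all 20 was 4.86 TPM, against 56.3% of protein-coding genes detected and a median of 3.02 TPM. Sox9 was the second highest after Sox11 (276.54 and 264.01 TPM), a SoxC factor of progenitor cells, and ahead of its relative Sox4 (90.84 and 82.95). Sox5, by its TPM over all transcripts, came next. Then came the endothelial factor Sox18 (16.95 and 16.36) and Sox12 (16.70 and 16.17), whose values overlapped, and then Sox6, which did not overlap its neighbours. Over complete coding transcripts alone Sox5 stood at 8.22 and 6.68 TPM, below these values of Sox18 and Sox12 and overlapping those of Sox6. The place of Sox5 in the family thus depended on the transcripts counted. Sox9 far exceeded the other SoxE genes, Sox8 (7.20 and 5.52 TPM) and the neural crest factor Sox10 (3.11 and 2.44). The third SoxD gene, Sox13, stood at 4.79 and 4.22 TPM, below Sox6 in both libraries. Sox7 (5.64 and 5.49) and Sox17 (5.74 and 4.70) were near it, and the library values of Sox7, Sox8 and Sox17 overlapped. The others, Sox1, Sox2, Sox3, Sox14, Sox15, Sox21 and Sox30, were at 0.18 TPM or less in each library, and Sry was listed at 0.

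Among NEDD4-family ligases, 8 of 9 genes were detected (median 14.1 TPM) and Wwp2 was second to Nedd4 (645.87 and 630.19 TPM), a ligase expressed in most tissues. Wwp2 was above Itch (40.66 and 46.88), Smurf2 (16.76 and 16.69) and Smurf1 (13.75 and 14.51), which act on BMP and TGF-beta signalling, and above its closest relative Wwp1 (9.99 and 10.32). Nedd4l (3.97 and 3.57) and Hecw2 (1.28 and 1.43) were lower. Hecw1 had 0.08 and 0.02 TPM and was called lower in replicate 2 (log2 ratio -1.67, binomial adjusted p = 0.0353). The membrane adaptors that recruit these ligases, Ndfip1 (203.34 and 175.05 TPM) and Ndfip2 (43.00 and 40.39), were both detected.

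**Figure D4:**
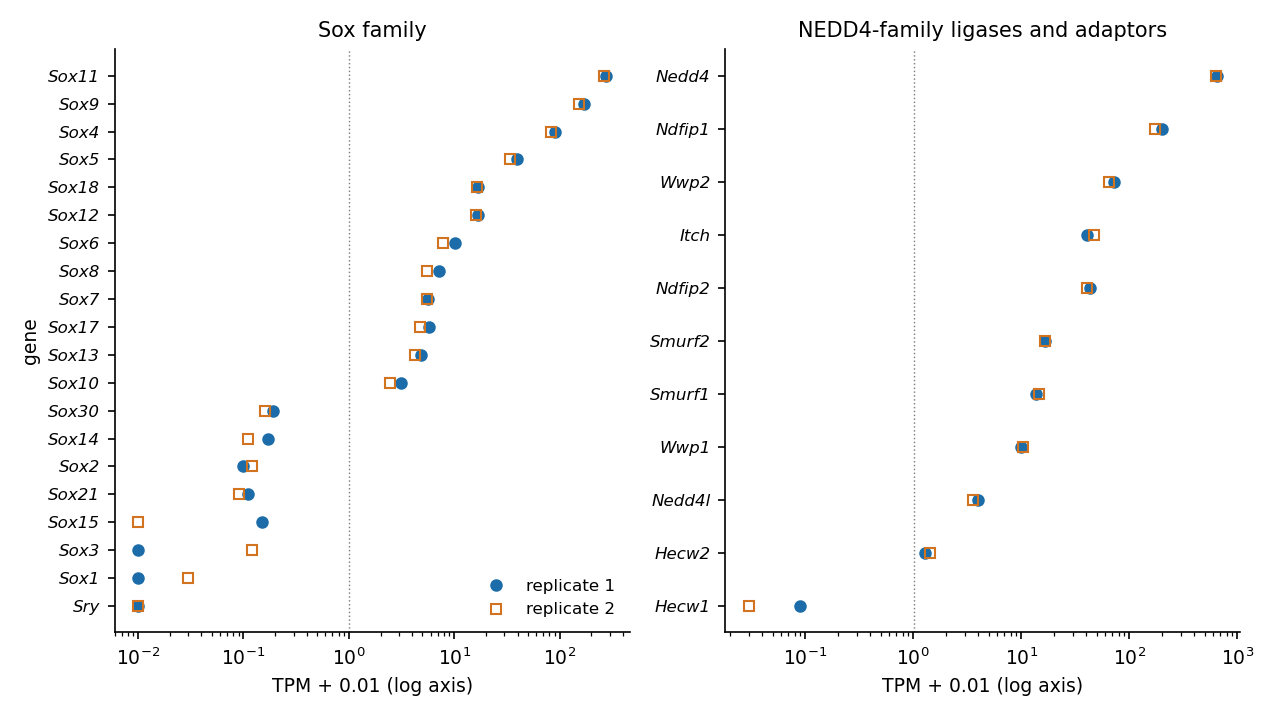
TPM plus 0.01 (log axis) of the Sox family, and of the NEDD4-family ligases with their adaptors, in replicate 1 (filled circles) and replicate 2 (open squares), with a dotted line at 1 TPM. Sox9, at 170.14 and 154.38 TPM, lies second to Sox11, and Wwp2, at 73.14 and 65.13, lies second to Nedd4 among the ligases.

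All 11 listed partners of Sox9 were detected, with a median of 33.1 TPM. The import receptor Kpnb1 was at 77.03 and 75.20 TPM. The Mediator subunits Med25 (48.69 and 45.22), through which Wwp2 is reported to act on Sox9 targets, and Med12 (45.68 and 43.18) were close to each other. Zfp219 (34.04 and 32.71) and the acetyltransferases Crebbp (33.47 and 32.75) and Ep300 (16.75 and 14.67) followed. Arid5b, a demethylase partner, was at 28.96 and 27.27 TPM.

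Of the 24 signalling genes that act on Sox9, 22 were detected (median 27.8 TPM). The receptor Bmpr1a (53.07 and 55.01 TPM) and the ligands Bmp4 (39.59 and 43.84), Bmp7 (30.07 and 30.28) and Bmp2 (10.13 and 9.97) stood for BMP signalling, which promotes condensation, with Smad5 (56.30 and 49.96), Smad1 (37.72 and 38.18) and Smad4 (22.97 and 27.46) as its transducers. Gdf5, a ligand of the joints, was at 18.46 and 13.65. Beta-catenin Ctnnb1 (520.27 and 502.62) and Wnt5a (87.09 and 85.34) were the WNT pathway genes listed. The FGF receptors Fgfr1 (94.22 and 93.76) and Fgfr2 (51.95 and 55.94) and the TGF-beta receptors Tgfbr1 (67.53 and 70.53) and Tgfbr2 (13.55 and 12.79) were also above 10 TPM, as were Gli3 (32.62 and 31.20), Rela (30.50 and 30.07) and Pth1r (23.68 and 27.24). Pthlh (1.79 and 0.88) and Gdf6 (1.25 and 0.95) were below 1 TPM in replicate 2.

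Regulators of condensing mesenchyme were detected in 13 of 14 cases (median 16.8 TPM). Prrx1, a homeobox gene of limb mesenchyme, was at 151.71 and 146.78 TPM, and Prrx2 at 110.34 and 116.36. The tendon factor Scx was at 65.81 and 52.80, Trps1 at 46.71 and 56.67, Twist1 at 44.03 and 44.21, Msx2 at 28.16 and 29.87, Hand2 at 22.66 and 23.57 and Zbtb20 at 10.08 and 10.70. The bone regulator Runx2 was lower, at 4.56 and 4.29.

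Matrix genes that Sox9 and the SoxD factors drive in cartilage were unequal. Of 20, 13 were detected (median 2.92 TPM). Col2a1, the main cartilage collagen, was at 189.17 and 181.03 TPM, above Sox9 in both libraries. Col9a1 (63.97 and 58.91), Col9a3 (36.81 and 36.74), Col9a2 (16.11 and 12.59), Col11a1 (13.34 and 15.00), chondromodulin Cnmd (12.06 and 14.05) and link protein Hapln1 (10.78 and 12.71) followed. Aggrecan Acan, the main proteoglycan of mature cartilage, was at 0.64 and 0.54 TPM, below each of the 4 regulators. Epyc, at 1.14 and 0.39 TPM, was called lower in replicate 2 (log2 ratio -1.45, binomial adjusted p = 0.00144). Genes of hypertrophic cartilage were lower, with 5 of 10 detected (median 0.955 TPM), led by Mef2c (7.80 and 8.26), Spp1 (7.84 and 3.72), Alpl (2.32 and 3.56) and Vegfa (2.67 and 2.81). Those not detected were Col10a1 (0.15 and 0.10), Ihh (0.21 and 0.45), and Ibsp, Mmp13 and Panx3, listed at 0 in both libraries. Spp1 was called lower in replicate 2 (log2 ratio -1.03, binomial adjusted p = 7.38e-10).

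**Figure D5:**
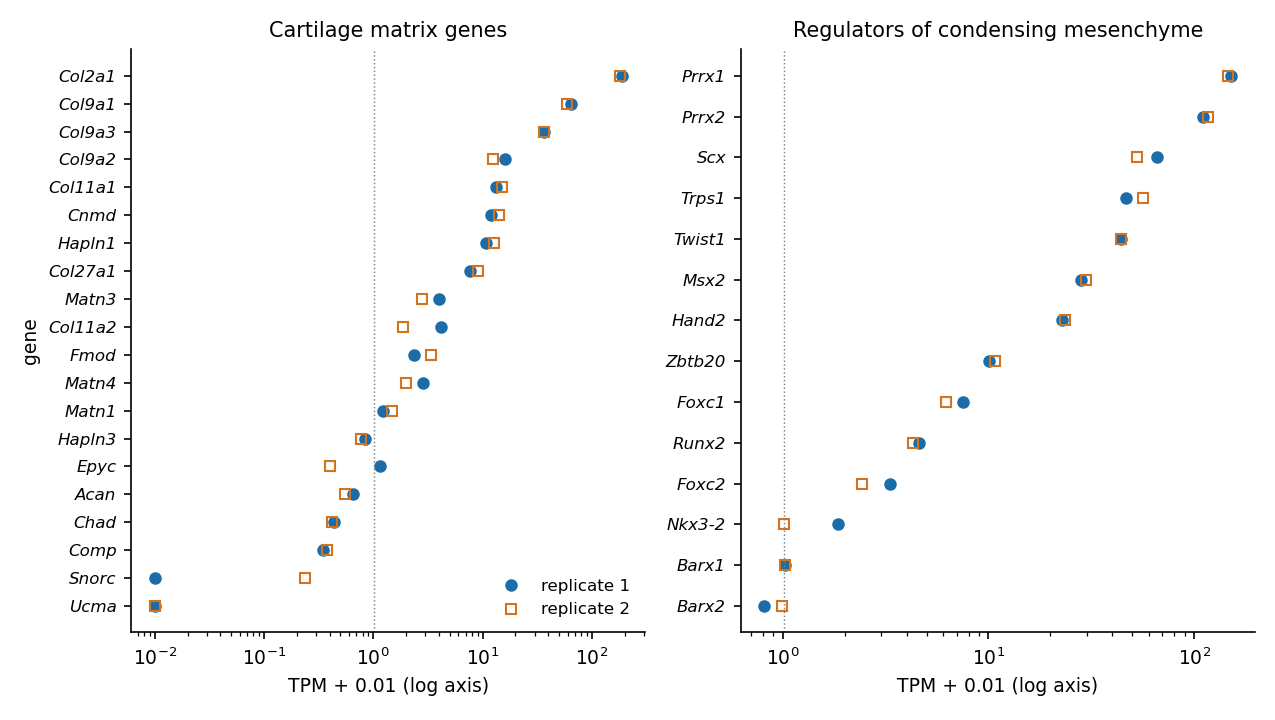
TPM plus 0.01 (log axis) of cartilage matrix genes and of regulators of condensing mesenchyme in replicate 1 (filled circles) and replicate 2 (open squares), with a dotted line at 1 TPM. Matrix genes run from Col2a1 at 189.17 and 181.03 TPM to Ucma, listed at 0, while 13 of 14 regulators lie at or above 1 TPM in both libraries.

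Sox genes are also used outside cartilage, and markers of other cell types were present in the same RNA. Sox9 and Sox10 act in neural crest and its glia, where 6 of 8 markers were detected with a summed level of 54.1 and 54.6 TPM in replicates 1 and 2. Tfap2b (24.55 and 27.79), Ngfr (10.62 and 9.17), Erbb3 (6.01 and 6.0) and Tfap2a (4.99 and 4.93) were highest. Sox6 also acts in erythroid and muscle cells. All 8 erythroid markers were detected, summing to 9455 and 8376 TPM, with embryonic globins Hbb-y (5993.33 and 5247.35), Hba-x (1957.83 and 1786.97) and Hbb-bh1 (1447.01 and 1294.82) above Alas2 (32.22 and 26.59). Muscle markers, 7 of 8 detected, summed to 211 and 185 TPM, led by Actc1 (75.51 and 62.94), Tnnt1 (51.14 and 43.97), Myog (24.11 and 23.33) and Myl1 (21.70 and 19.97). Summed deposited TPM was lower in replicate 2 for 12 of the 15 lists, the erythroid and muscle lists included and the neural crest list not. Spike-ins took 11.8% of TPM in replicate 1 and 17.2% in replicate 2, which lowers every deposited TPM of replicate 2. The list sums were not rescaled for this, so the count of lists is not read as a difference between the pools. The part of erythroid or muscle cells in the level of Sox6 was not tested.

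Neuron markers, 6 of 8 detected, summed to 40.1 and 41.5 TPM, with Isl1 (12.46 and 14.83), Dcx (7.59 and 9.21), Tubb3 (8.87 and 6.91) and Stmn2 (5.17 and 4.29) highest. Ectoderm markers, 8 of 8, summed to 179 and 188 TPM, with Krt14 (39.62 and 35.51), Perp (33.36 and 32.92), Epcam (29.56 and 31.40) and Krt18 (21.81 and 22.87). Endothelial markers, 8 of 8, summed to 197 and 179.8 TPM, with Egfl7 (57.39 and 50.64), Plvap (45.50 and 42.41), Esam (24.04 and 20.33) and Pecam1 (20.58 and 18.34). How much of Sox5, Sox6, Sox9 or Wwp2 RNA came from such cells was not tested.

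Near Sox9, the long non-coding RNA 2610035D17Rik, 256 kb away, was at 21.53 and 17.37 TPM, and Slc39a11, 457 kb away, at 11.76 and 9.01. Sstr2, 832 kb away, was at 0.38 and 0.83 TPM and was called higher in replicate 2 (log2 ratio 1.12, binomial adjusted p = 0.0132). Near Wwp2, Nob1, 11.3 kb away, was at 74.94 and 76.32 TPM, and Psmd7, 21.8 kb away, at 313.43 and 287.73. Of these neighbours Cyb5b (92.07 and 95.41) and Map2k6 (46.52 and 46.30) were the others among the 4 highest of the 16 listed, 11 of which were detected.

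Among 172 listed genes, the level closest to that of each member, by distance in log2(TPM + 1) over the 2 libraries, was that of Prrx1 (0.18) and Col2a1 (0.27) for Sox9 and of Actc1 (0.07) and Tgfbr1 (0.16) for Wwp2. For Sox5, by its TPM over all transcripts, it was Krt14 (0.07) and Col9a3 (0.15), and for Sox6 the endothelial receptor Tie1 (0.09). With 2 libraries of 1 group this distance compares levels and not patterns across conditions.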

How the data were processed

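Total RNA longer than 200 nt was sequenced from 2 pools of limb, with 10 ng of RNA a library and spike-ins, per the labels. The authors deposited expected counts (estimated, not normalised) and TPM per gene and transcript, with the percent of a gene's TPM for each transcript, on mm10 with GENCODE M4, per the file headers; the sources used here do not name aligner, versions or strand use. Counts over genes were 40.6 M and 32.3 M, and spike-ins held 5.37% and 7.92% of all counts. Number-only entries (6.29e-05% and 4.76e-05% of counts) were left out of tests.

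Names, exons and coding lengths came from GENCODE M21 (42462 of 43346 genes matched). Deposited lengths of Sox5-202, Sox5-204, Sox5-205, Sox5-206, Sox6-205 and Wwp2-201 differ from M21, so their class rests on M21. Sox5 and Sox6 forms with at least 2000 nt of coding sequence were called long. Detected means 1 TPM in both libraries. Expected counts were rounded, scaled by TMM (edgeR 4.0.16, R 4.3.3) and tested with the two-sided exact binomial test over genes with at least 20 counts, with a prior count of 0.5 for ratios and Benjamini-Hochberg adjustment; with 1 group no quasi-likelihood contrast exists. Other scalings were from DESeq2 1.42.0. The steps were tested on simulated data. Biopython 1.88 aligned and translated sequences.

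The members, the gene lists and the tests were chosen with earlier results of these data known. Named were the members, their transcripts at 5% or more, overlapping genes, both families, the 4 highest genes of other lists, all genes at 10 TPM or more in the partner, signal, regulator and matrix lists, the nearest genes by level and listed genes called between libraries. A few genes under this rule are not reported here, though list totals hold them. Other genes and forms named were chosen after their values were seen. The labels call the samples biological replicates.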

Additional observations from a re-analysis of the deposited data

How the results depend on the processing

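Of 147 alternatives over 34 results, 38 could not differ by construction, 28 of them because leaving out 1 of 2 replicates always stays within their SD, and say nothing of stability. Of the other 109, 79 kept direction, stayed within the replicate spread or, for a count of genes, stayed within a fixed factor of it. Another 24 moved a value beyond the replicate spread, 5 lowered a count beyond that factor and 1 reversed. Smaller drops in a count are among the 79. Examples at 5 TPM in both libraries are the Sox family, from 12 genes to 9, and the regulators, from 13 to 9. Rescaling TPM without spike-ins gave means of 189.6 TPM for Sox9, 80.8 for Wwp2 and 42.7 for Sox5. CPM, not divided by length, gave 464 for Sox9, 204.6 for Wwp2, 57.9 for Sox5 and 34.7 for Sox6. Posterior mean TPM gave a log2 ratio of 0.88 for Wwp2 over Sox5. Alternatives chosen after seeing the data were leaving out a replicate for the order of the genes, the order by CPM, with log2 ratios of 1.18 (Sox9 over Wwp2), 1.82 (Wwp2 over Sox5) and 0.74 (Sox5 over Sox6), complete coding transcripts only, where Sox5 was 7.45 TPM, Wwp2 over Sox5 3.22 and Sox5 over Sox6 reversed to -0.26, and counts over the longest transcript, where Sox5 was 11.5 TPM, Sox6 6.04, and the log2 ratios 2.59 and 0.92. Shares of counts, also chosen then, were 63.8% for complete long Sox5, 7.85% for its internal start (28.2% by posterior mean TPM), 21.7% for Sox6-203, 42.3% for Sox6-204, 28.0% for Sox6-202 and 23.8% for the Sox6 cassette. Counts and CPM differ from TPM by construction, since they are not divided by length. With estimated variation, edgeR's exact test called 220 genes between libraries in place of 518; 0 members were called under any setting of fold and p. At 5 TPM in both libraries, 8 matrix, 1 hypertrophic, 3 Schwann and crest and 3 neuron genes were detected. Leaving out either replicate leaves 1 library, which has no spread. No paired analysis was possible because the labels give 1 group. The binomial test covers counting error only, and the Sox5 and Sox6 shares rest on reads that overlapping models divide.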
